A study of Mus musculus with 12 samples.

Results

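Gene expression was compared between mouse intrahepatic cholangiocarcinomas given chemotherapy alone and those given immune checkpoint blockade alone. Intrahepatic cholangiocarcinoma arises from bile ducts within the liver, and the tumours were of the 425-ICC model. The 6 samples compared, of 12 in the series, were all the samples whose titles name one of these treatments by itself. The 3 GC tumours received chemotherapy. The labels do not spell GC out, and it is taken here to mean gemcitabine with cisplatin. The 3 ICB tumours received dual immune checkpoint blockade, which from the title of the series is directed at CTLA-4 and PD1. The 3 Control tumours received control immunoglobulin and are described beside the other groups without a test. All tumours were collected after 8 days of treatment. The labels give no mouse strain, sex, age or dose, and do not say that the 3 samples of a group came from separate animals. The p-values therefore measure only the spread between these samples, which may be technical.

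Gemcitabine is a nucleoside analogue that stalls DNA synthesis, and cisplatin crosslinks DNA. DNA damage can release DNA into the cytosol, where sensors such as cGAS signal through STING and lead to the secretion of type I interferons. Interferon bound to its receptor activates transcription factors that bind the interferon-stimulated response element in the promoters of antiviral genes. Antibodies against CTLA-4 and PD-1 act on T cells and release them from inhibition, and activated T cells secrete interferon gamma. In regions of low oxygen, hypoxia-inducible factors bind a short element in the promoters of genes for glycolysis, blood vessel growth and pH control.

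Values were FPKM as deposited (fragments scaled to transcript length and to the mapped total of the library), 1 per gene symbol and tumour. Read counts were not recoverable from them, so the sequencing depth is unknown. Of 24421 symbols, the 12494 with a mean of at least 1 FPKM over the 6 GC and ICB libraries were tested with limma on log2(FPKM + 1), and every log2 difference below is GC minus ICB on that scale. The values of a group are given in the order of replicates 1 to 3. FPKM summed to between 579977 and 646015 per library in these 6 libraries. Spearman correlations of all tested genes were 0.917 to 0.959 within GC, 0.958 to 0.969 within ICB and 0.896 to 0.964 between the groups.

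Several libraries stood apart in their content, as shown by marker lists of other cell types. Transcripts of 19 skeletal muscle genes made up 0.769% of FPKM in GC replicate 2 and 0.268% in Control replicate 2, and at most 0.00271% in the other libraries. The 20 hepatocyte genes made up 0.692%, 0.23% and 1.74% of FPKM in GC tumours, 0.157%, 0.383% and 0.566% in ICB tumours and 0.0242% to 0.0424% in Control tumours. The ribosomal precursor RNA Rn45s had 1165, 1059 and 1267 FPKM in GC tumours, 1518, 26773 and 8744 FPKM in ICB tumours and 957 to 3901 FPKM in Control tumours. Neutrophil transcripts were highest in ICB replicate 3, and Control replicate 1 was low in macrophage transcripts. Of the markers expected in a biliary tumour, Krt19, a keratin of bile duct cells, had only 2.56, 1.54 and 7.77 FPKM in GC tumours, 3.18, 2.16 and 7.04 FPKM in ICB tumours and 18.2, 0 and 0 FPKM in Control tumours. Epcam, an epithelial adhesion molecule, had 0.735 to 5.8 FPKM in GC tumours and at most 0.656 FPKM in ICB tumours. Both markers were thus low in the treated groups, and Krt19 was at 0 in Control replicates 2 and 3. The tumours are called here as labelled. Of 14 tested genes of the biliary and tumour cell list, 3 were higher in GC and 3 lower at an unadjusted p under 0.05 (limma). Over all tested genes 17% were higher and 3.15% lower. The median log2 difference of the list was 0.12. It made up 0.438% to 0.877% of FPKM in GC tumours, 0.467% to 0.739% in ICB tumours and 0.318% to 0.486% in Control tumours. Sox9, a transcription factor of bile duct cells, had 35.2, 36.6 and 62.2 FPKM in GC tumours, 71.4, 64.6 and 66 FPKM in ICB tumours and 43.5 to 91.9 FPKM in Control tumours.

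**Figure D1:**
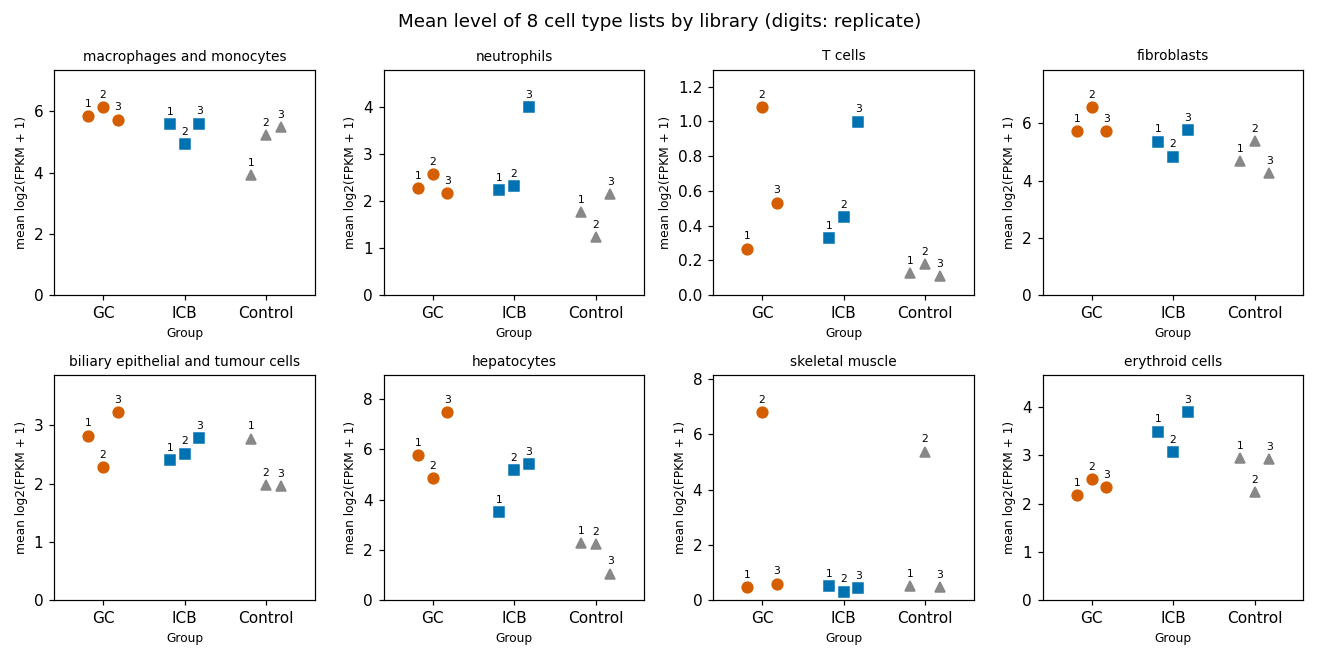
Mean log2(FPKM + 1) of 8 cell type marker lists (y axes) in each GC, ICB and Control library (points, with the replicate number above). GC replicate 2 and Control replicate 2 stand above the others in skeletal muscle genes, ICB replicate 3 in neutrophil genes, and the hepatocyte list is higher in the GC and ICB libraries than in the Control libraries.

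Between GC and ICB tumours, 18 genes rose and 3 fell at an adjusted p under 0.05 (limma, Benjamini-Hochberg over all tested genes), which is 0.144% and 0.024% of the tested genes. At an unadjusted p under 0.05, GC was higher for 2121 genes (17%) and lower for 393 genes (3.15%). All 3 GC values lay above all 3 ICB values for 2745 genes (22%) and below them for 569 genes (4.55%). The median tested gene was 0.17 higher in GC tumours on the log2 scale. With median-of-ratios scaling of the 6 libraries this shift was removed, the split at an unadjusted p under 0.05 became 1369 genes higher (11%) and 1427 lower (11.4%), and no gene was called, the smallest adjusted p being 0.0581. The 21 calls also depended on single libraries. The count of called genes was 34, 15 and 6 without GC replicate 1, 2 or 3, and 20, 1 and 1 without ICB replicate 1, 2 or 3, and the numbers of the 21 genes still called were 13, 10, 3, 9, 0 and 0. All 21 genes kept their direction in each alternative that was run. No gene was called with the 3 Control libraries in the fit or with all 12 samples in it.

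**Figure D2:**
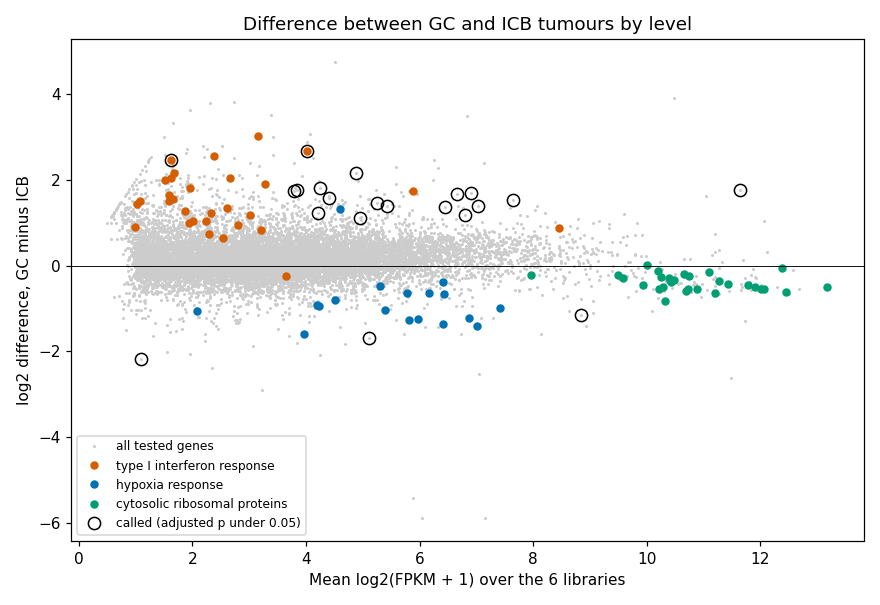
The log2 difference of each of the 12494 tested genes, GC minus ICB (y axis), against its mean log2(FPKM + 1) over the 6 libraries (x axis). The 21 called genes are ringed, type I interferon response genes lie mostly above 0, and hypoxia response genes and cytosolic ribosomal protein genes mostly below 0.

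Genes of the type I interferon response were higher in GC tumours than in ICB tumours almost throughout the list. Of 33 listed genes 30 were tested, and 28 were higher in GC at an unadjusted p under 0.05 and none lower, where 17% of all tested genes were higher. The list's median difference was 1.47, against 0.17 over all tested genes, and 1.37 with median-of-ratios scaling, where the median of all tested genes was at 0. With that scaling 26 members were higher and 1 lower, where 11% of all tested genes were higher and 11.4% lower. All 3 GC values lay above all 3 ICB values for 28 members, against 22% of all tested genes. The called members were Isg15 and Oas1g. The promoters of these genes and of Ifit3, the members of smallest p for which the RefSeq table (GRCm38.p6) holds a promoter, are shown. Marked in them are GAAA, any 2 letters and GAAA again, the core of the interferon-stimulated response element. Each line holds the 250 bases before the start of the gene in the gene's own direction, with every match in capitals (read on either strand, so that TTTC, any 2 letters and TTTC also mark a match). The Isg15 run lies at chr4:156200819-156201068 on the minus strand, the Oas1g run at chr5:120887614-120887863 on the minus strand and the Ifit3 run at chr19:34583279-34583528 on the plus strand.
Isg15: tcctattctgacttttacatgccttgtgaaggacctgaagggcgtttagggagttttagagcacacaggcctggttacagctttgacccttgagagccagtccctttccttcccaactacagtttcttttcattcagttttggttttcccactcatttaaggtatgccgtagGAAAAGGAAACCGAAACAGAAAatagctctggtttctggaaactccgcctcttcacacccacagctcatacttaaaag
Oas1g: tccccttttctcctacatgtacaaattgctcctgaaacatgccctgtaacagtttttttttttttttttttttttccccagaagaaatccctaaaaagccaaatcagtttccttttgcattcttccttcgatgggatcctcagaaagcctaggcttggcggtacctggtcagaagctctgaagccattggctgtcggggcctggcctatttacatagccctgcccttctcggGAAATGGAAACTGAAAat
Ifit3: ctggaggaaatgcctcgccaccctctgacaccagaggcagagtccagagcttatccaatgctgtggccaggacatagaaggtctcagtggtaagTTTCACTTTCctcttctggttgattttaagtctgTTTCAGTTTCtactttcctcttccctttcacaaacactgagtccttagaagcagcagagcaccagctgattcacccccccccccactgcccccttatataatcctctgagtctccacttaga
Isg15 held 3 overlapping matches and the other 2 promoters held 2 each, those of Oas1g overlapping as well. Over windows that reach from 250 bases before to 50 after a start, 14 of the 21 tested members with a window held a match (66.7%). Among all tested genes with a window the share was 353 of 9323 (3.79%), and among all 32851 windows of the table it was 3.44%. A match describes the letters and does not show that a factor was bound.

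Isg15, a ubiquitin-like protein that is attached to other proteins during the antiviral response, had 26.4, 70.2 and 34.6 FPKM in GC tumours, 3.74, 6.86 and 6.2 FPKM in ICB tumours and 4.42, 5.18 and 2.64 FPKM in Control tumours. It lies at chr4:156199424-156200818 in the GENCODE M21 annotation (GRCm38). All 3 GC values were above every ICB and Control value, and the difference was 2.67 ± 0.35 (SE, adjusted p = 0.0454, limma). Oas1g, one of the oligoadenylate synthetases that detect double-stranded RNA, had 3.74, 10.4 and 6.02 FPKM in GC tumours, against 0.323, 0.147 and 0.476 FPKM in ICB tumours and at most 0.688 FPKM in Control tumours. Its difference was 2.47 ± 0.34 (adjusted p = 0.0454, limma). Oas1g shares sequence with its neighbours in the family, among them Oas1a, so reads could have been split between them.

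The largest difference in the list was that of Irf7, a transcription factor that drives further interferon synthesis, with 11.4, 70.6 and 17.2 FPKM in GC tumours, 1.98, 1.35 and 3.27 FPKM in ICB tumours and 0.934 to 4.31 FPKM in Control tumours. The spread between the GC tumours was wide, and the adjusted p was 0.0864 (difference 3.03 ± 0.58). Ifit3, an antiviral protein that binds viral RNA complexes, had 6.31, 25.5 and 9.19 FPKM in GC tumours, 0.987, 1.24 and 1.23 FPKM in ICB tumours and at most 1.43 FPKM in Control tumours (adjusted p = 0.0794). Ifit1, which binds RNA that lacks the host's cap methylation, had 4.12, 11.4 and 3.85 FPKM in GC tumours, 0.391, 0.831 and 0.345 FPKM in ICB tumours and at most 0.418 FPKM in Control tumours (adjusted p = 0.0864). In each of these 3 genes every GC value lay above every ICB and Control value. Usp18, which removes Isg15 from proteins and damps the receptor, had 3.09, 11.2 and 3.85 FPKM in GC tumours and 0.314 to 0.89 FPKM in ICB tumours (adjusted p = 0.0917). Zbp1, a sensor of Z-form nucleic acid, had 10.9, 39.9 and 12.6 FPKM in GC tumours and 2.57, 3.59 and 6.84 FPKM in ICB tumours (adjusted p = 0.112). Bst2, which tethers budding viruses, had 57.7, 187 and 114 FPKM in GC tumours and 24.3, 26 and 49.3 FPKM in ICB tumours (adjusted p = 0.109).

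Stat2 and Irf9, which carry the signal of the interferon receptor to the nucleus, were apart by less. Stat2 had 6.39, 14.6 and 6.75 FPKM in GC tumours and 5.27, 2.34 and 5.02 FPKM in ICB tumours (difference 0.94 ± 0.36), and Irf9 had 10.2, 17.2 and 7.99 FPKM in GC tumours and 6.58, 4.48 and 7.02 FPKM in ICB tumours (difference 0.82 ± 0.29). The exception in the list was Isg20, an exonuclease, with 9.54 to 11.2 FPKM in GC tumours and 9.26 to 15 FPKM in ICB tumours. GC replicate 2, the library with skeletal muscle transcripts, had the highest value of every member other than Isg20, as the heat map of the list shows. Without GC replicate 2 the median was 0.91 and 19 of 27 tested members were higher at an unadjusted p under 0.05. Without ICB replicate 2, the library rich in ribosomal precursor RNA, 19 of 32 were higher and 1 was lower. Without both libraries 18 of 29 were higher and 1 was lower. With the mean of the hepatocyte list as a covariate 29 of 30 were higher.

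**Figure D3:**
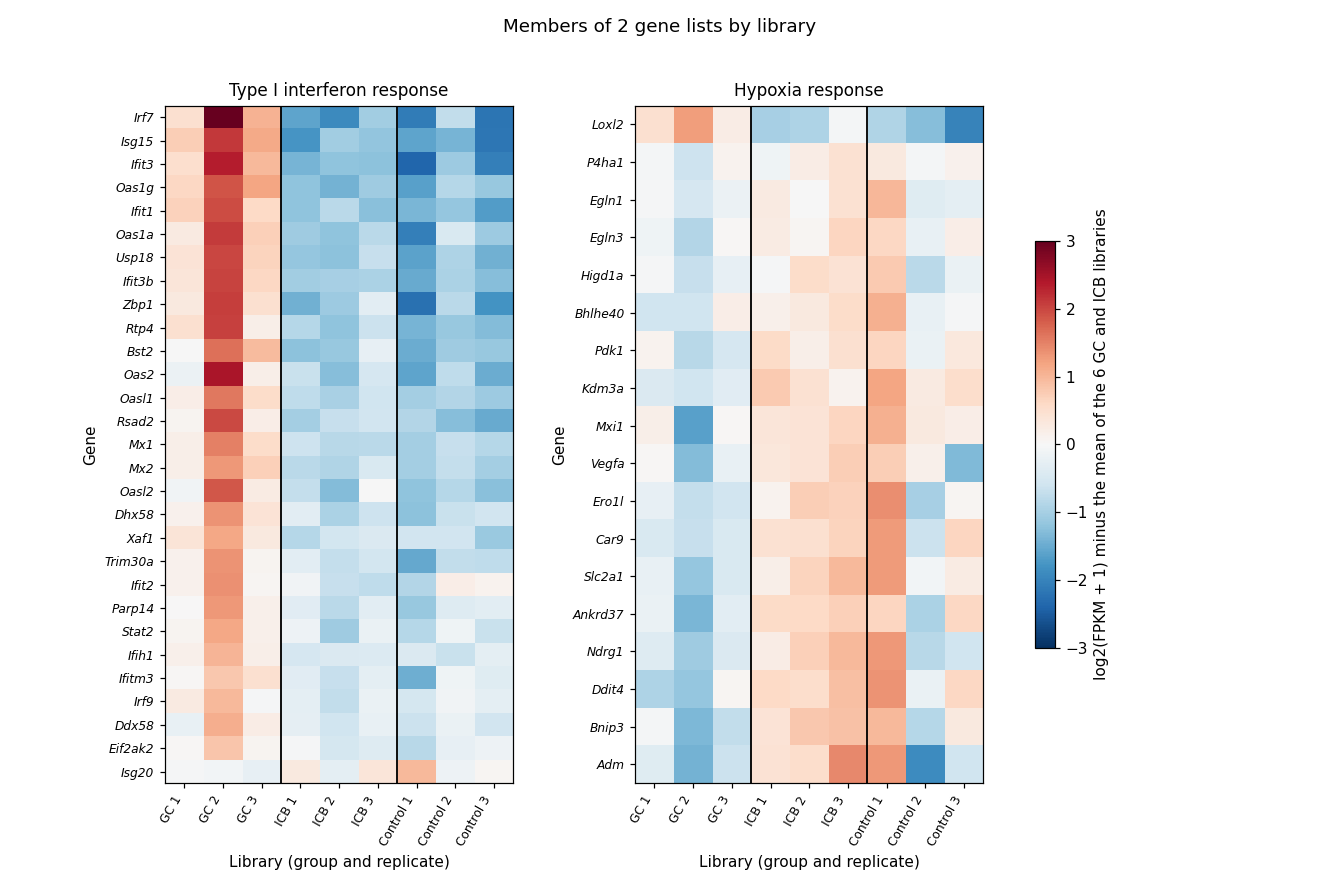
Heat maps of 29 of the 30 tested type I interferon response genes (left) and the 18 hypoxia response genes (right) in the GC, ICB and Control libraries, ordered by the GC minus ICB difference. Colour gives log2(FPKM + 1) minus the gene's mean over the 6 GC and ICB libraries (red higher, blue lower); in the left panel GC replicate 2 is red for each gene but Isg20 and the other GC columns are mostly red or near white, and in the right panel the GC columns are mostly blue or near white except for Loxl2.

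Genes of the interferon gamma response showed a smaller difference. Of 20 tested members 11 were higher in GC at an unadjusted p under 0.05 (17% of all tested genes) and none lower, and none was called. The median was 0.91, or 0.8 with median-of-ratios scaling, where 9 members were higher (11% of all tested genes). Cxcl10, a chemokine that attracts T cells and that both interferon types induce, had 2.94, 16.9 and 5.34 FPKM in GC tumours, 0.348, 1.31 and 1.06 FPKM in ICB tumours and 0.351 to 4.42 FPKM in Control tumours (difference 2.04 ± 0.51, adjusted p = 0.112). Cxcl9, which is induced mainly by interferon gamma, had 0.12, 5.75 and 0.92 FPKM in GC tumours and 0.359, 0.679 and 2.51 FPKM in ICB tumours, and the groups overlapped. The GTPase Iigp1 had 5.28, 14.5 and 7.89 FPKM in GC tumours and 1.14, 2.8 and 4.1 FPKM in ICB tumours (adjusted p = 0.124). Irf1, an early target of interferon gamma, had 33.3, 35.9 and 33.5 FPKM in GC tumours and 33.5, 33.5 and 59.8 FPKM in ICB tumours. Without GC replicate 2 the number of members higher at an unadjusted p under 0.05 was 5 of 14 tested. Without ICB replicate 1 it was 7 of 22, and without ICB replicate 2 it was 5 of 22.

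Among the sensors of cytosolic nucleic acid, 7 of 19 tested genes were higher in GC at an unadjusted p under 0.05 (17% of all tested genes) and none lower, with a median of 0.7. Without GC replicate 2 the median was 0.37 and 5 were higher, without GC replicate 3 11 were higher, and without both GC replicate 2 and ICB replicate 2 the median was 0.23 and 3 were higher. The gene of cGAS, listed under its older symbol Mb21d1, had 2.73, 3.38 and 2 FPKM in GC tumours and 1.66, 1.11 and 1.14 FPKM in ICB tumours (difference 0.68 ± 0.26, adjusted p = 0.204). The gene of STING, listed as Tmem173, had 14.4, 26.2 and 8.27 FPKM in GC tumours and 8.49, 4.82 and 10.2 FPKM in ICB tumours, and the groups overlapped. Trex1, the exonuclease that clears DNA from the cytosol, had 14.8, 26.5 and 17.5 FPKM in GC tumours and 10.4, 4.24 and 7.53 FPKM in ICB tumours (difference 1.33 ± 0.32, adjusted p = 0.109).

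Antigen presentation through MHC class I was higher in GC tumours for part of the list. Of 20 tested members 11 were higher at an unadjusted p under 0.05 (17% of all tested genes), none was lower and none was called, and the median was 0.61. With median-of-ratios scaling 4 were higher (11% of all tested genes) and the median was 0.44. The number higher was 7 without GC replicate 2 or ICB replicate 1 and 6 without ICB replicate 2. Psmb10, a subunit of the immunoproteasome, had 41.6, 59.1 and 52.2 FPKM in GC tumours, 29.4, 28.1 and 28.5 FPKM in ICB tumours and 15.2 to 37 FPKM in Control tumours (difference 0.79 ± 0.17, adjusted p = 0.097). B2m, the light chain of class I molecules, had 713, 1193 and 836 FPKM in GC tumours and 584, 524 and 750 FPKM in ICB tumours, and H2-K1 had 170, 540 and 310 FPKM in GC tumours and 139, 129 and 254 FPKM in ICB tumours. In both genes the lowest GC value lay below the highest ICB value. H2-Q6, which is nearly identical to other Q region genes, was listed at 0 in all 3 ICB libraries and in GC replicate 3. Of 8 tested genes of class II presentation 4 were higher at an unadjusted p under 0.05 (17% of all tested genes) and none lower, with a median of 0.39. With the hepatocyte list as a covariate 2 were higher, 3 were lower and the median was -0.095. The 4 were H2-DMa, H2-DMb1, H2-DMb2 and Ctss. H2-DMa, a chain of the loading factor, had 25.4, 32.6 and 48.8 FPKM in GC tumours and 15.5, 14.3 and 19.6 FPKM in ICB tumours (adjusted p = 0.109). Ctss, the protease that trims the invariant chain, had 625, 882 and 765 FPKM in GC tumours and 383, 317 and 432 FPKM in ICB tumours (difference 1 ± 0.18, adjusted p = 0.0864). Cd74, the invariant chain, had 117, 122 and 318 FPKM in GC tumours and 94.7, 169 and 280 FPKM in ICB tumours, and its difference was 0.01 ± 0.46. The class II chains H2-Aa, H2-Ab1 and H2-Eb1 had differences of -0.36, -0.06 and -0.25, with adjusted p of 0.691, 0.953 and 0.786, and their groups overlapped.

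The remaining called genes that rose in GC tumours, beside Isg15 and Oas1g, included receptors, enzymes and signalling genes of leukocytes. Clec7a, the receptor Dectin-1 that binds fungal glucans, had 62.1, 72.8 and 49.7 FPKM in GC tumours, 8.96, 16.2 and 14.8 FPKM in ICB tumours and 1.15, 19.5 and 35.6 FPKM in Control tumours (difference 2.15 ± 0.24, adjusted p = 0.0395, chr6:129461591-129472779). Clec4n, the related receptor Dectin-2, had 195, 168 and 174 FPKM in GC tumours, 61.2, 58.7 and 48.5 FPKM in ICB tumours and 6.79, 87.4 and 102 FPKM in Control tumours (difference 1.66 ± 0.15, adjusted p = 0.0203, chr6:123229843-123247021). Cd52, a surface glycoprotein of leukocytes, had 311, 330 and 386 FPKM in GC tumours, 118, 109 and 125 FPKM in ICB tumours and 40.3, 128 and 235 FPKM in Control tumours (difference 1.53 ± 0.15, adjusted p = 0.0203). In these 3 genes the GC values lay above the values of every Control tumour, and the ICB values lay inside the Control range.

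Lyz2, the lysozyme of macrophages and neutrophils, had 5966, 5561 and 6071 FPKM in GC tumours, 2527, 1368 and 1464 FPKM in ICB tumours and 186, 2910 and 6176 FPKM in Control tumours (difference 1.77 ± 0.24, adjusted p = 0.0454, chr10:117277331-117282321). The GC tumours agreed closely with each other, while the Control tumours ranged from the lowest to the highest value of the 9 libraries. The neighbouring Lyz1, nearly identical in sequence and usually made by Paneth cells of the intestine, rose as well, and reads of the pair may have been shared. The same holds for Bcl2a1a and Bcl2a1d, near-identical copies of a gene that blocks apoptosis in blood cells, with differences of 1.46 ± 0.17 and 1.38 ± 0.17. Rac2, a small GTPase of blood cells, had 30.5, 38.8 and 38.2 FPKM in GC tumours and 13.4, 8.78 and 11.9 FPKM in ICB tumours. Ctsc, the protease that activates granule enzymes, had 211, 229 and 193 FPKM in GC tumours and 75.2, 69.6 and 95.3 FPKM in ICB tumours. Cfp, the complement protein properdin, had 122, 175 and 126 FPKM in GC tumours and 57.1, 45.2 and 57.2 FPKM in ICB tumours. The other called genes higher in GC were Slamf9 (1.81), Rhno1 (1.77), 1810011H11Rik (1.73), Pilra (1.23), Cotl1 (1.17) and Tbxas1 (1.11), with the log2 difference in brackets. Of these, Rhno1 takes part in the DNA damage checkpoint and had 25.3, 25.5 and 26.1 FPKM in GC tumours, 10.3, 6.04 and 4.94 FPKM in ICB tumours and 23.6, 27.6 and 7.45 FPKM in Control tumours. Tbxas1 makes thromboxane, and Pilra is an inhibitory receptor of myeloid cells. Clec7a, 1810011H11Rik, Tbxas1 and Mir17hg fell outside the rule for naming genes and were named after their values were seen.

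**Figure D4:**
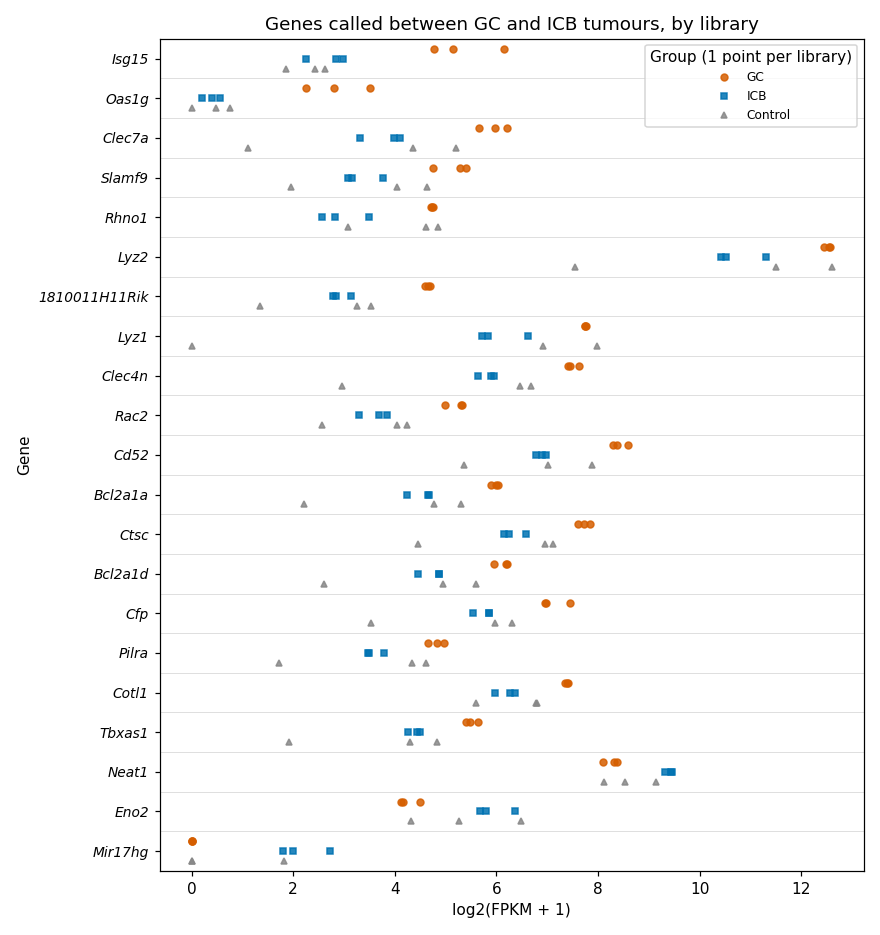
Values of the 21 called genes as log2(FPKM + 1) (x axis) in each GC, ICB and Control library (1 point per library; genes from the largest positive to the largest negative GC minus ICB difference). The GC points of the upper 18 genes lie to the right of the ICB points and those of the lower 3 genes to the left, and the Control points are spread more widely.

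In the list of 26 macrophage and monocyte markers 25 were tested, and 10 were higher in GC at an unadjusted p under 0.05 (17% of all tested genes) and none lower. With median-of-ratios scaling 10 were higher as well (11% of all tested genes). The median difference was 0.55, or 0.4 with that scaling, against 0.17 and 0 over all tested genes. Lyz2 was the called member. Transcripts of the list made up 2.63%, 2.88% and 2.66% of FPKM in GC tumours, 1.36%, 1.12% and 1.65% in ICB tumours and 0.558%, 1.47% and 1.75% in Control tumours. In bulk tissue, fewer cells of a type and less RNA per cell cannot be told apart. Apoe, the lipid carrier that macrophages and hepatocytes make, had 2309, 4960 and 4317 FPKM in GC tumours and 995, 960 and 1779 FPKM in ICB tumours (difference 1.62 ± 0.33, adjusted p = 0.0944). Fcgr1, a high-affinity receptor for antibodies, had 17, 35.6 and 16.1 FPKM in GC tumours and 9.59, 5.84 and 7.78 FPKM in ICB tumours (adjusted p = 0.101). C1qa, a chain of the first complement component, had 459, 931 and 623 FPKM in GC tumours and 331, 231 and 359 FPKM in ICB tumours (adjusted p = 0.112). Ccr2, the receptor that brings monocytes into tissue, had 16.6, 16.2 and 26.8 FPKM in GC tumours and 13.8, 9.45 and 6.15 FPKM in ICB tumours. These genes had no overlap between the groups. All 3 GC values lay above all 3 ICB values for 10 members of the list, against 22% of all tested genes. With the Control libraries in the fit 2 members of the list were higher at an unadjusted p under 0.05, and with all 12 samples 1 was. Without ICB replicate 2, 8 members were higher and 1 was lower. Without both GC replicate 2 and ICB replicate 2, 8 were higher and 4 lower, and the median was 0.31. General macrophage markers overlapped, with 12.8, 34.4 and 9.39 FPKM of Adgre1 in GC tumours and 16.7, 6.52 and 13.3 FPKM in ICB tumours, and with 122, 146 and 96.9 FPKM of Cd68 in GC tumours and 110, 59.6 and 92.2 FPKM in ICB tumours. Marco, a scavenger receptor, had 8.77, 1.83 and 4.4 FPKM in GC tumours and 24.1, 2.54 and 15.6 FPKM in ICB tumours.

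The largest difference among complement genes was that of C5ar1, the receptor for the inflammatory fragment of C5, with 26.1, 38.8 and 24.5 FPKM in GC tumours, 1.65, 8.3 and 1.15 FPKM in ICB tumours and 9.08, 21.4 and 9.9 FPKM in Control tumours. The ICB values were below every Control value, and the difference was 3.01 ± 0.5 (adjusted p = 0.0794). Of 23 tested complement genes 10 were higher in GC at an unadjusted p under 0.05 (17% of all tested genes) and none lower, with a median of 0.9. With median-of-ratios scaling 5 were higher (11% of all tested genes) and the median was 0.7. The number higher was also 5 without GC replicate 3, ICB replicate 1 or ICB replicate 2, and with the hepatocyte list as a covariate it was 6 and the median was 0.32. Members made chiefly in liver were highest in GC replicate 3, which held the most hepatocyte transcripts, with 9.21, 2.24 and 31.9 FPKM of C9 in GC tumours and 0.343, 1.98 and 2.98 FPKM in ICB tumours, and the part of liver tissue in them was not tested. Among 10 tested dendritic cell genes 4 were higher at an unadjusted p under 0.05 (17% of all tested genes). That number was 2 without GC replicate 3 or ICB replicate 2, and 0 without both GC replicate 2 and ICB replicate 2. Itgax, the integrin CD11c, had 3.18, 8.36 and 7.85 FPKM in GC tumours and 2.64, 1.94 and 2.89 FPKM in ICB tumours (adjusted p = 0.155), and Ccl22, a chemokine of mature dendritic cells, had 2.3, 5.48 and 6.09 FPKM in GC tumours and 1.91, 0.675 and 1.71 FPKM in ICB tumours (adjusted p = 0.145). Of 14 tested chemokines that attract monocytes and T cells, 4 were higher at an unadjusted p under 0.05 (17% of all tested genes) and none lower. The median was 0.65. With median-of-ratios scaling 2 were higher (11% of all tested genes). Without GC replicate 2, 3 were higher and 1 lower, and the median was -0.01. Among them Ccl6, a monocyte-attracting chemokine, had 1103, 870 and 779 FPKM in GC tumours, 392, 569 and 442 FPKM in ICB tumours and 90.9 to 411 FPKM in Control tumours (difference 0.97 ± 0.2, adjusted p = 0.0917).

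Neutrophil genes showed no common shift, and their median of -0.79 rested on 1 library. S100a9, an abundant neutrophil protein, had 27.8, 53.6 and 17.1 FPKM in GC tumours, 31, 59.7 and 400 FPKM in ICB tumours and 9 to 48.6 FPKM in Control tumours. The cathelicidin gene Camp had 1.4, 0 and 3.55 FPKM in GC tumours and 0, 1.36 and 60.1 FPKM in ICB tumours. Without ICB replicate 3 the median of the list was -0.01. Of 16 tested members 2 were higher in GC and 2 lower at an unadjusted p under 0.05, where 17% of all tested genes were higher and 3.15% lower. Cxcl2, a chemokine that attracts neutrophils, had 3.81, 15.8 and 3.81 FPKM in GC tumours, 18.5, 18.4 and 30.8 FPKM in ICB tumours and 3.7 to 22.2 FPKM in Control tumours (difference -1.65 ± 0.47, adjusted p = 0.128). Csf2, the growth factor GM-CSF, had 9.18, 11.1 and 14.1 FPKM in GC tumours and 4.03, 6.92 and 5.97 FPKM in ICB tumours (difference 0.91 ± 0.24, adjusted p = 0.115).

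T cell transcripts were low in all 6 tumours. Of the 20 listed genes 17 were found, and only 6 of these reached the mean for testing. None of the 6 differed at an unadjusted p under 0.05, and the 17 genes held at most 0.00418% of FPKM in any library. Cd3e, a chain of the T cell receptor complex, had 0, 2.4 and 0.901 FPKM in GC tumours, 0.718, 0.777 and 3.25 FPKM in ICB tumours and at most 0.621 FPKM in Control tumours. Cd8a had at most 0.237 FPKM in GC tumours and 0.644 FPKM in ICB tumours. Of the receptors that the antibodies block, Ctla4 had 0.12, 0.967 and 0.784 FPKM in GC tumours and 0.627, 0.954 and 3.64 FPKM in ICB tumours (difference -0.64 ± 0.44, adjusted p = 0.447), and Pdcd1 had 0.285, 0.739 and 0.592 FPKM in GC tumours and 0.591, 0.593 and 2.53 FPKM in ICB tumours. ICB replicate 3 was the highest for each of these genes and the rest overlapped. Cd274, the gene of PD-L1, had 10.3, 13 and 12.2 FPKM in GC tumours, 8.85, 10.9 and 12.7 FPKM in ICB tumours and 5.98 to 7.55 FPKM in Control tumours, and its difference of 0.13 ± 0.19 changed sign with median-of-ratios scaling. Of 10 tested checkpoint ligands 3 were higher in GC at an unadjusted p under 0.05 (17% of all tested genes) and none lower, with a median of 0.44. All 3 GC values lay above all 3 ICB values for 4 of them, against 22% of all tested genes. With median-of-ratios scaling 4 lay above and 1 below, against 14.1% and 15.8% of all tested genes. Cd80 and Lgals9 were among the members without overlap between the groups. Cd80, a ligand of CTLA-4 and CD28, had 3.89, 8.79 and 4.45 FPKM in GC tumours and 1.65, 1.79 and 0.939 FPKM in ICB tumours (difference 1.39 ± 0.31, adjusted p = 0.1). Lgals9, a galectin that binds TIM-3, had 45.4, 63.6 and 64.2 FPKM in GC tumours, 29.9, 18.7 and 26.9 FPKM in ICB tumours and 15.5 to 26.4 FPKM in Control tumours (difference 1.18 ± 0.22, adjusted p = 0.0864).

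Genes of the hypoxia response were lower in GC tumours. Of 18 tested members, 15 were lower at an unadjusted p under 0.05 and 1 was higher, where 3.15% of all tested genes were lower and 17% higher. The same numbers held with median-of-ratios scaling, where 11.4% of all tested genes were lower and 11% higher. The median difference was -0.97, or -1.16 with that scaling, and no member was called. The groups did not overlap for 15 members below and 1 above, against 4.55% and 22% of all tested genes. With that scaling the numbers were 14 and 1, against 15.8% and 14.1% of all tested genes. The promoters of Car9 and Bnip3 are shown with the letters ACGTG, the core of the hypoxia response element, in capitals on either strand, as the 250 bases before the start in the gene's own direction (RefSeq, GRCm38.p6). The motif was chosen after the values had been seen. The Car9 run lies at chr4:43506776-43507025 on the plus strand and the Bnip3 run at chr7:138909507-138909756 on the minus strand.
Car9: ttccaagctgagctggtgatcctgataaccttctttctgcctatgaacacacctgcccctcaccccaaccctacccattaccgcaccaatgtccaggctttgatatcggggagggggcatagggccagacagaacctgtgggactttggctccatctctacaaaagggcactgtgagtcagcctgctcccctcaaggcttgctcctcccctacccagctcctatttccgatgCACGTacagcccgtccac
Bnip3: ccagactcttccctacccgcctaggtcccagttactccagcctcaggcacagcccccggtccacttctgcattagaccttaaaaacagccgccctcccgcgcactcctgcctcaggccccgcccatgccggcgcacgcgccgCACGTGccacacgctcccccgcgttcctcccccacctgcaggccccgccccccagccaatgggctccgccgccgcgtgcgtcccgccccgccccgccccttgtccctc
The match in Car9 ends 14 bases before the start, and Bnip3 holds 2 overlapping matches. In windows that also take in the first 50 bases of the gene, 11 of 14 members with a window held ACGTG (78.6%), against 2737 of 9323 tested genes with a window (29.4%) and 19.6% of all windows. The corresponding run of Adm, the next member by p with a promoter, held no match and is not shown.

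Car9, a carbonic anhydrase that regulates pH in hypoxic tumours, had 2.1, 1.62 and 2.07 FPKM in GC tumours, 4.84, 4.88 and 5.72 FPKM in ICB tumours and 9.29, 1.71 and 5.67 FPKM in Control tumours (difference -1.07 ± 0.21, adjusted p = 0.0897). Bnip3, a mitophagy receptor, had 123, 49.6 and 76.6 FPKM in GC tumours, 171, 225 and 237 FPKM in ICB tumours and 253, 69.6 and 157 FPKM in Control tumours (difference -1.42 ± 0.3, adjusted p = 0.098). Adm, the vasodilating peptide adrenomedullin, had 11.3, 4.9 and 9.06 FPKM in GC tumours, 20, 21.4 and 41.9 FPKM in ICB tumours and 37.3, 3.22 and 9.28 FPKM in Control tumours (difference -1.6 ± 0.35, adjusted p = 0.0985). For these genes the Control tumours spanned most of the range of both treated groups. Ndrg1, a stress-induced gene, had 41.9, 25.7 and 40.2 FPKM in GC tumours and 64, 90.5 and 109 FPKM in ICB tumours (adjusted p = 0.09). Ero1l, an oxidase of protein folding, had 34.5, 24.6 and 27.2 FPKM in GC tumours and 44.5, 69.1 and 67.1 FPKM in ICB tumours (adjusted p = 0.0944). Vegfa, the main growth factor for blood vessels, had 175, 68.6 and 145 FPKM in GC tumours and 216, 225 and 287 FPKM in ICB tumours (difference -1 ± 0.32, adjusted p = 0.152). Hilpda, a hypoxia-induced protein of lipid droplets that is not on the list, had 107, 101 and 94.7 FPKM in GC tumours and 168, 302 and 265 FPKM in ICB tumours (difference -1.23 ± 0.22, adjusted p = 0.0864). The member in the other direction was Loxl2, a lysyl oxidase that crosslinks collagen, with 33.2, 57 and 27.5 FPKM in GC tumours and 11.3, 11.8 and 22.3 FPKM in ICB tumours (difference 1.31 ± 0.33, adjusted p = 0.111). The number of members lower at an unadjusted p under 0.05 was 11 without GC replicate 2 and 11 without ICB replicate 3, the lowest numbers among the 6 libraries left out in turn. It was 9 with the Control libraries in the fit, 4 with all 12 samples in it and 17 with the mean of the hepatocyte list as a covariate.

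Glycolytic genes, several of which are known hypoxia targets, shared this direction. Of 20 tested members 8 were lower in GC at an unadjusted p under 0.05 (3.15% of all tested genes) and none higher, with a median of -0.29. Without ICB replicate 2 the number was 5. With median-of-ratios scaling 10 were lower (11.4% of all tested genes) and the median was -0.48. Eno2, an enolase found mainly in neurons and in tumours, fell to 21.6, 16.5 and 16.9 FPKM in GC tumours, against 50.4, 54.4 and 81.5 FPKM in ICB tumours, and Control tumours had 88.1, 19 and 37.4 FPKM (difference -1.69 ± 0.22, adjusted p = 0.0438, chr6:124760053-124769673). Slc2a1, the glucose transporter GLUT1, had 99.7, 51.6 and 83.6 FPKM in GC tumours and 131, 186 and 230 FPKM in ICB tumours (adjusted p = 0.103). Pgk1, a glycolytic kinase, had 382, 220 and 331 FPKM in GC tumours and 419, 546 and 520 FPKM in ICB tumours (adjusted p = 0.15). Both of the other called genes lower in GC are non-coding. Neat1, the long RNA that builds nuclear paraspeckles, had 317, 272 and 332 FPKM in GC tumours, 700, 637 and 693 FPKM in ICB tumours and 275, 369 and 559 FPKM in Control tumours (difference -1.14 ± 0.14, adjusted p = 0.0438, chr19:5824708-5845478). The ICB values thus lay above all GC and Control values. Mir17hg, the host transcript of a microRNA cluster known to promote growth, was listed at 0 in all 3 GC libraries and at 5.62, 2.51 and 2.99 FPKM in ICB tumours, and Control tumours had 0, 2.52 and 0 FPKM (adjusted p = 0.0481). Atf3, an immediate stress gene, had 7.45, 7.18 and 8.74 FPKM in GC tumours, 12.3, 25.2 and 18.9 FPKM in ICB tumours and 15.8 to 30.7 FPKM in Control tumours (difference -1.12 ± 0.25, adjusted p = 0.1).

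Among stromal genes, 10 of 22 fibroblast genes and 8 of 10 smooth muscle and myofibroblast genes were higher in GC at an unadjusted p under 0.05, with medians of 0.77 and 1.26. No fibroblast gene was lower, and Smtn of the smooth muscle list was. With median-of-ratios scaling 8 fibroblast genes were higher and 1 lower, and 6 smooth muscle and myofibroblast genes were higher and 1 lower. The medians were then 0.59 and 1.13, and 11% of all tested genes were higher and 11.4% lower. Over all tested genes 17% were higher and the median was 0.17. Other stromal lists lay near that median. It was 0.22 for 19 collagen genes (0.03 with median-of-ratios scaling) and 0.09 for 20 genes of matrix proteoglycans and crosslinking enzymes (-0.1 with that scaling). Of these, 7 collagen genes were higher and none lower, and 4 of the other list were higher and 1 lower. With that scaling 4 collagen genes were higher and 2 lower, and 3 of the other list were higher and 3 lower. Without ICB replicate 2, 2 collagen genes were higher and 3 lower, and their median was -0.04. Acta2, the actin of myofibroblasts, had 81.4, 143 and 64.7 FPKM in GC tumours, 19.9, 28.9 and 41.2 FPKM in ICB tumours and 12.4 to 48 FPKM in Control tumours (difference 1.63 ± 0.33, adjusted p = 0.0936). Cthrc1, a secreted protein of activated fibroblasts, had 90.2, 143 and 81.8 FPKM in GC tumours, 25, 25.3 and 42 FPKM in ICB tumours and 3.74, 32.1 and 4.18 FPKM in Control tumours (difference 1.74 ± 0.27, adjusted p = 0.0677). Col1a1, the main collagen chain, had 864, 1683 and 1113 FPKM in GC tumours and 519, 326 and 772 FPKM in ICB tumours (adjusted p = 0.126). GC replicate 2, which held skeletal muscle transcripts, was the highest in each of these 3 genes, and the part of adjoining tissue in them was not tested. The fibroblast list as a share of FPKM overlapped between the groups, with 1.26%, 1.52% and 1.31% in GC tumours and 1.61%, 0.704% and 1.12% in ICB tumours. Without ICB replicate 1 or 2 the number of fibroblast genes higher at an unadjusted p under 0.05 was 6 or 4, and without ICB replicate 1 that of smooth muscle and myofibroblast genes was 5. Without ICB replicate 2, 2 fibroblast genes were lower. Without both GC replicate 2 and ICB replicate 2, 4 fibroblast genes were higher and 3 lower, with a median of 0.21.

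Genes of DNA replication and mitosis were not lower in GC tumours than in ICB tumours, and a change from Control tumours was not tested. Of 29 replication and G1/S genes 15 were higher at an unadjusted p under 0.05, and of 26 mitotic genes 8 were, with none lower in either list and medians of 0.52 and 0.45. With median-of-ratios scaling the medians were 0.34 and 0.28, and the numbers 9 and 5. Without single libraries the number of replication genes ranged from 4 without ICB replicate 3 to 21 without ICB replicate 1, and that of mitotic genes from 4 without ICB replicate 2 to 21 without ICB replicate 1. Over all tested genes the share higher was 17%, and 11% with that scaling. With the Control libraries in the fit 3 replication and 0 mitotic genes were higher, and with all 12 samples 0 and 0. The mitotic list had a mean log2(FPKM + 1) of 3.771, 4.161 and 3.921 in GC tumours and 2.302, 4.293 and 4.604 in Control tumours. For the replication list these means were 4.065, 4.28 and 4.213 in GC tumours and 3.063, 4.48 and 4.541 in Control tumours. Rrm2, the regulated subunit of ribonucleotide reductase, which gemcitabine inhibits, had 24.9, 54.4 and 37.8 FPKM in GC tumours, 28, 13.7 and 15.1 FPKM in ICB tumours and 10.1 to 37.3 FPKM in Control tumours (difference 1.01 ± 0.33, adjusted p = 0.16). Ccne1, the cyclin of S phase entry, had 15.4, 24.7 and 17.2 FPKM in GC tumours and 10.9, 7.6 and 7.78 FPKM in ICB tumours (difference 1.03 ± 0.23, adjusted p = 0.0991). Mki67, the proliferation marker Ki-67, had 9.11, 15.8 and 10.3 FPKM in GC tumours, 13.1, 5.14 and 6.64 FPKM in ICB tumours and 1.84, 16.5 and 20.5 FPKM in Control tumours, and the groups overlapped.

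Of 29 tested p53 targets 9 were higher in GC and 1 lower at an unadjusted p under 0.05, where 17% of all tested genes were higher and 3.15% lower, and the median was 0.38. With median-of-ratios scaling 7 were higher and 1 lower, where 11% of all tested genes were higher and 11.4% lower, the median was 0.18, and 17 members had a positive and 12 a negative difference. Aen, a nuclease induced by p53, had 12.7, 21.6 and 15.6 FPKM in GC tumours and 9.03, 6.17 and 6.66 FPKM in ICB tumours (difference 1.07 ± 0.24, adjusted p = 0.0985). Ccng1, a cyclin induced by p53, had 25.1, 41.5 and 23.7 FPKM in GC tumours and 15.8, 14.8 and 17.7 FPKM in ICB tumours (difference 0.82 ± 0.23, adjusted p = 0.124). The classical targets were less apart, with 71.8, 100 and 83.5 FPKM of Cdkn1a in GC tumours and 60.2, 58.2 and 76.9 FPKM in ICB tumours, and with 24.7, 24.7 and 20.7 FPKM of Mdm2 in GC tumours and 17.9, 19.7 and 18.6 FPKM in ICB tumours. Control replicate 1 had the highest Cdkn1a value, 110 FPKM. The member lower in GC was Ddb2, a sensor of DNA lesions, with 2.85, 1.32 and 1.18 FPKM in GC tumours and 4.29, 3.05 and 4.19 FPKM in ICB tumours.

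Of 16 tested genes of gemcitabine uptake, activation and targets 8 were higher in GC at an unadjusted p under 0.05 and 1, Cda, was lower. Over all tested genes 17% were higher and 3.15% lower. The median of the list was 0.41, against 0.17 over all tested genes. With median-of-ratios scaling 5 were higher and 1 was lower, where 11% of all tested genes were higher and 11.4% lower. The median with that scaling was 0.22. The number higher was 3 without GC replicate 2, 5 without GC replicate 3 or ICB replicate 2, and 4 without ICB replicate 3. Nme1, a kinase that adds the last phosphate to nucleotides, had the smallest p of these, with 221, 383 and 339 FPKM in GC tumours and 156, 163 and 151 FPKM in ICB tumours (difference 0.96 ± 0.21, adjusted p = 0.0985). Cda, the deaminase that inactivates gemcitabine, had 22.5, 13.6 and 26.5 FPKM in GC tumours and 34.6, 26.1 and 32.7 FPKM in ICB tumours (difference -0.59 ± 0.25, adjusted p = 0.232). Dck, the kinase that activates gemcitabine, had 6.44, 9.64 and 6.4 FPKM in GC tumours and 6.34, 4.81 and 4.51 FPKM in ICB tumours (difference 0.44 ± 0.23), and the transporter Slc29a1 had 126, 103 and 141 FPKM in GC tumours and 182, 97 and 112 FPKM in ICB tumours. Of 8 tested genes of copper and platinum transport and metallothioneins, 1 was higher and 3 were lower at an unadjusted p under 0.05 (17% and 3.15% of all tested genes). The median of that list was 0.12, or -0.07 with median-of-ratios scaling. The metallothionein Mt2, which binds metals including platinum, had 453, 241 and 428 FPKM in GC tumours, 729, 585 and 1094 FPKM in ICB tumours and 1629, 105 and 120 FPKM in Control tumours (difference -1.1 ± 0.3, adjusted p = 0.12). Atox1, a copper chaperone, had 314, 308 and 315 FPKM in GC tumours and 214, 176 and 201 FPKM in ICB tumours (difference 0.66 ± 0.14, adjusted p = 0.0944). Of 20 tested NRF2 targets, the antioxidant genes, 10 were higher at an unadjusted p under 0.05 (17% of all tested genes) and none lower, with a median of 0.41. With median-of-ratios scaling 5 NRF2 targets were higher (11% of all tested genes), 1 was lower (11.4%) and the median was 0.22. The number higher was 4 without GC replicate 3, 6 without GC replicate 2 or ICB replicate 3, and 5 without ICB replicate 2. Gclm, a subunit of the enzyme that makes glutathione, had 11.8, 13.8 and 14.9 FPKM in GC tumours and 9.27, 6.35 and 8.6 FPKM in ICB tumours (adjusted p = 0.131). Several glutathione S-transferases, such as Gsta3 with 9.59, 13.7 and 50.9 FPKM in GC tumours and 1.53, 4.83 and 3.4 FPKM in ICB tumours, were highest in GC replicate 3, the library with the most hepatocyte transcripts, and the part of liver tissue was not tested.

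Cytosolic ribosomal protein genes lay on the other side of the distribution from most genes. Of 30 tested members 29 had a negative difference, 10 were lower at an unadjusted p under 0.05 and none was higher, with a median of -0.41. Over all tested genes 3.15% were lower. With median-of-ratios scaling the median was -0.61, but 3 members were lower at that threshold, where 11.4% of all tested genes were. The number that were lower was 0 without ICB replicate 2 and 20 without GC replicate 1, so it rested on single libraries. ICB replicate 2 was also the library with the most ribosomal precursor RNA, and the part of RNA composition in this difference was not tested. Nuclear genes of oxidative phosphorylation had a median of 0.28, of which 0.08 remained with median-of-ratios scaling.

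**Figure D5:**
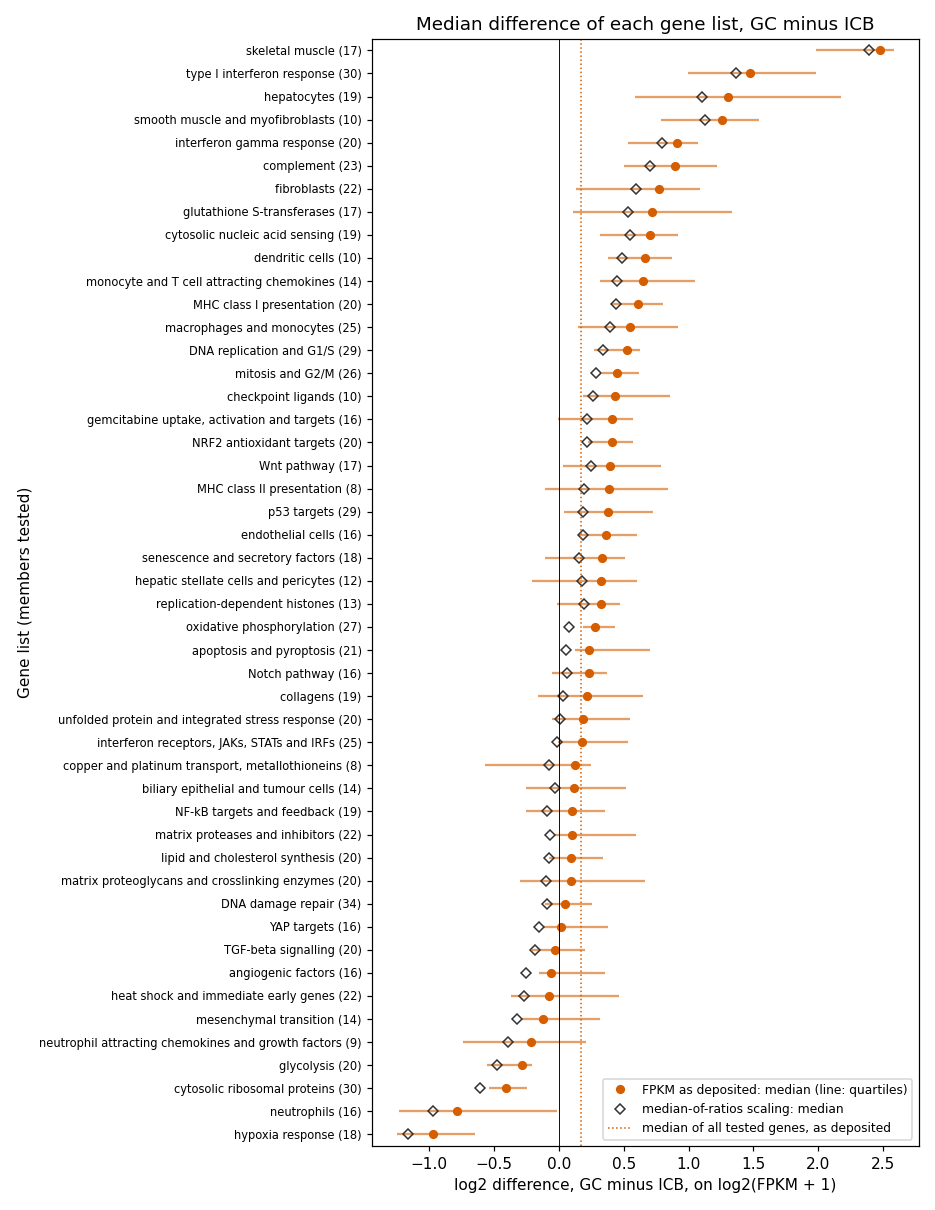
Median log2 difference, GC minus ICB, of each gene list with at least 8 tested members (filled points; lines span the quartiles), and the median with median-of-ratios scaling (open diamonds). Skeletal muscle, type I interferon response, hepatocyte and smooth muscle lists lie farthest to the right, hypoxia response, neutrophil and ribosomal protein lists farthest to the left, and the dotted line marks the median of all tested genes, 0.17.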

How the data were processed

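The values used were FPKM deposited by the authors, 1 per gene symbol and library. Per the labels' protocols, total RNA was extracted from tumour tissue and made into stranded libraries. The mouse build mm10 and the tools HISAT2, HTSeq, SAMtools, cutadapt and FastQC were named, per the submitters' processing notes. Versions, the step that made FPKM and whether strand was used in counting are not given in the sources used here, so overlapping and antisense genes may share reads. FPKM steps did not give whole reads, so counts and depth are unknown and no count model was used.

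Libraries were assigned by title. The 6 GC and ICB libraries were fitted with limma 3.58.1 in R 4.3.3 on log2(FPKM + 1), two-sided, with an intensity trend and 4 residual degrees of freedom, for genes whose mean reached 1 FPKM. Benjamini-Hochberg adjustment ran over all tested genes, and 0.05 was the threshold. An exact permutation test of 3 against 3 cannot go below p = 0.1. Gene lists (60 lists, 1178 entries, 1151 found) were described by counts and medians without a test. The comparison, the lists and the alternatives were chosen with earlier results of these data known. Genes were named if called with groups that did not overlap and a higher mean of at least 5 FPKM (the 15 largest in each direction; smallest p up to 12 where fewer than 5 passed), if among the 4 members of smallest p of a list, or from a fixed set. Members named beyond this (such as Adgre1, Cd68, Irf9, Isg20, Tmem173, Mb21d1 and Sox9) were chosen after their values were seen. The values of 1 tested member of the type I interferon list are not reported here. Locations came from GENCODE M21. The limma step was tested on simulated data. Alternatives were other pseudocounts, filters, scalings, moderation, samples in the fit, a replicate block, array weights, a hepatocyte covariate and each library left out. The filter on the mean was applied again when a library was left out, so the number of tested members of a list varied.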

Additional observations from a re-analysis of the deposited data

How the results depend on the processing

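The number of called genes (18 higher and 3 lower in GC) depended on the settings. It was 0 and 0 with no filter on low values (2492 and 416 at an unadjusted p under 0.05), with median-of-ratios scaling (1369 and 1427), without the intensity trend (1972 and 372), with the 9 GC, ICB and Control samples in the fit (1483 and 291), with all 12 samples (603 and 89) and with the hepatocyte list as a covariate (2375 and 303), each by limma. Quantile normalization gave 3 higher and 0 lower. Robust moderation gave 55 calls in all, 51 of them higher, and included all 21. Array weights gave 3987 calls (2946 higher, 1041 lower), but the estimation of these weights did not converge and gave 1 library nearly all of the weight. A pseudocount of 0.1 FPKM gave 19 and 2, and a mean of at least 10 FPKM gave 22 and 2. With single libraries left out, the total ranged from 1 to 34, the number higher from 1 to 27 and the number lower from 0 to 7. Without both GC replicate 2 and ICB replicate 2, an alternative chosen after seeing the data, 1 gene was higher and 0 lower. The cause of these changes was not tested.

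With the replicate number as a block, 0 genes were called (1698 higher and 355 lower at an unadjusted p under 0.05, limma). Deviations of libraries with the same number correlated at 0.0761, -0.1416 and 0.1561, and libraries did not all correlate best with their own number. With 3 libraries per group these correlations cannot show whether libraries of the same number were processed together.

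A few small differences changed sign. Cd74 (0.01) was -0.19 with median-of-ratios scaling, -0.24 with quantile normalization, -0.57 with array weights, -0.81 with the hepatocyte covariate, and between -0.46 and 0.39 with single libraries left out. Cd274 (0.13) was -0.06, -0.04 and -0.11 with the first 3 of these settings. Slc29a1 (-0.04) was 0.19 with array weights, 0.05 with the hepatocyte covariate and between -0.22 and 0.23 with single libraries left out. Cxcl9 (0.29) was -0.79 with array weights. With single libraries left out, Adgre1 (0.47) ranged from -0.05 (without GC replicate 2) to 0.84, Krt19 (-0.14) from -0.66 to 0.24 (without GC replicate 2 or ICB replicate 3), Camp (-1.24) from -2.44 to 0.53 (without ICB replicate 3), Irf1 (-0.24) from -0.38 to 0.03 (without ICB replicate 3) and Cd3e (-0.34) from -0.77 to 0.11 (without GC replicate 1). Adgre1 was -0.41 without both GC replicate 2 and ICB replicate 2. Low genes such as those of T cells are limited by a depth that is unknown, and 3 libraries per group limit every test.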

Other observations

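Other genes of small p also had groups that did not overlap. Tet2, an enzyme that oxidises methylated DNA, had 6.01, 5.13 and 5.06 FPKM in GC tumours, 12.2, 10.1 and 10.8 FPKM in ICB tumours and 11.6, 5.03 and 8.26 FPKM in Control tumours (difference -0.91 ± 0.18, adjusted p = 0.09, limma). Gadd45b, a stress-induced gene, had 17.4, 18.2 and 24.5 FPKM in GC tumours, 37, 36.8 and 48.2 FPKM in ICB tumours and 22 to 101 FPKM in Control tumours (difference -0.99 ± 0.19, adjusted p = 0.0868). Rgcc, a regulator of the cell cycle, had 17.6, 16.4 and 8.85 FPKM in GC tumours and 30.9, 42.6 and 44.4 FPKM in ICB tumours (difference -1.43 ± 0.27, adjusted p = 0.0864).

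Heat shock genes differed in direction among themselves. Hsph1, a large chaperone, had 26.3, 47.6 and 48.8 FPKM in GC tumours, 14.9, 17.6 and 19.7 FPKM in ICB tumours and 11.6 to 31 FPKM in Control tumours (difference 1.14 ± 0.25, adjusted p = 0.0985). The inducible chaperone Hspa1a, a near-identical copy of Hspa1b, had 5.68, 5.57 and 6.25 FPKM in GC tumours, 9.06, 26.4 and 23.6 FPKM in ICB tumours and 7.59 to 35.6 FPKM in Control tumours (difference -1.47 ± 0.35, adjusted p = 0.109). Of 5 tested erythroid genes the haemoglobin genes Hbb-bs and Hba-a1 were lower in GC at an unadjusted p under 0.05 (3.15% of all tested genes). None was higher and none was called. Hbb-bs had 13.6, 41 and 0.0358 FPKM in GC tumours, 770, 112 and 1500 FPKM in ICB tumours and 20.4 to 475 FPKM in Control tumours (adjusted p = 0.102), and Hba-a1, whose values overlapped between the groups, had 0.332, 0.326 and 21.1 FPKM in GC tumours and 28.5, 14.4 and 35.7 FPKM in ICB tumours. Near-identical haemoglobin copies may have shared reads, and the blood content of the tissues was not measured otherwise.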
